A study of Homo sapiens with 16 samples.

Results

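Gemcitabine was given to 2 human pancreatic cancer cell lines, and the question here is for which genes the response of one line differed from the response of the other. The value for a gene is the change with gemcitabine in PANC-1 minus the change with gemcitabine in BxPC3, each taken on log2(FPKM + 1), where FPKM is fragments per kilobase of gene, scaled to the size of the library. Members were chosen by their control level: the mean FPKM of the control libraries had to be at least 5 in both lines, so that a gene could fall as well as rise in each. This left 5570 members of the 58735 genes in the tables, and all 5570 were among the 14134 genes tested. The choice used the control libraries only, and the size of the difference played no part in it. Just inside the limit stood MRPS6, at 5.002 FPKM in BxPC3 controls and 14.4 in PANC-1 controls, and just outside it TP53I3, at 4.997 and 14.01.

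BxPC3 and PANC-1 are established lines of pancreatic ductal adenocarcinoma (PDAC). Each line was sequenced as an untreated control (CTRL) and with gemcitabine (GEM), with 4 libraries in each of the 4 groups. RNA was enriched for poly-A tails. No dose or time is stated in the labels, nor whether the 4 libraries of a group came from separate cultures. The p-values therefore weigh each difference against the variation among libraries of a group, and that variation may be technical.

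Gemcitabine is a deoxycytidine analogue. Cells import it through nucleoside transporters, deoxycytidine kinase phosphorylates it, and its diphosphate blocks ribonucleotide reductase while its triphosphate is built into DNA and stops the replication fork. Cells so treated commonly pause in S phase, and their further response runs through stress, interferon, growth factor and cell surface programmes that differ among tumours of the pancreas.

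The libraries held 22152034 to 37777222 reads in listed genes, recovered from the FPKM steps. Keratins marked both lines as epithelial: mean KRT8 was 290.1 FPKM in BxPC3 controls and 115 in PANC-1 controls, and mean KRT19 was 1841 and 93.4. KRT7, a duct keratin, was at 455 in BxPC3 controls but at 0.530 in PANC-1 controls, whereas vimentin (VIM), a mesenchymal filament protein, was at 0.5001 and 268. Markers of other cell types were low but not all absent. The summed level of 5 leukocyte markers lay between 6.99 and 8.35 FPKM over the BxPC3 libraries, most of it CD14, and between 0.988 and 4.12 over the PANC-1 libraries, while PTPRC, which defines leukocytes, stayed below 0.1 as a group mean. The 6 fibroblast markers summed to 6.46 to 7.18 in BxPC3 controls and 3.85 to 4.23 with gemcitabine, and to 11.9 to 12.9 and 8.19 to 11.7 in PANC-1. COL3A1 led in BxPC3 controls, at a mean of 4.82, and COL1A1 in PANC-1 controls, at 11.4, while COL1A2 and DCN stayed below 0.1. Mean FN1, a fibronectin gene counted here as mesenchymal, was 0.609 in BxPC3 controls and 8.07 with gemcitabine, and 16.9 and 6.02 in PANC-1. The 3 endothelial markers summed to 1.38 to 1.61 in BxPC3 controls and 5.59 to 6.29 with gemcitabine, where CDH5 alone averaged 5.76, and stayed below 0.1 in PANC-1. The 3 acinar markers summed to 1.79 to 2.28 in BxPC3 controls and 13.7 to 15 with gemcitabine, where PRSS1 averaged 14.1, and to at most 1.59 in PANC-1. The endocrine markers INS, GCG and CHGA stayed below 0.1 as group means. The part of these markers in the results was not tested. The 2 tables were normalised separately, so a level set across lines is a rough guide, while the difference of changes rests on changes within each table. One library, PANC-1 GEM replicate 1, stood apart from the other 3 of its group. In this library the tested genes in the highest quartile of transcript GC content lay 0.43 above the mean of the other 3, as a median on the log2 scale. Those in the lowest quartile lay at -0.40. Many results are given with and without it. Where only the value over all libraries is given, a count, or a call in PANC-1 or its absence, may rest on this library.

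Of the 5570 members, 2756 differed between the lines (limma interaction over 16 libraries, Benjamini-Hochberg adjusted p under 0.05 over all tested genes), or 49.5%, while 51.8% of all tested genes did. The value was higher in PANC-1 for 1250 members, with 25.2% of all tested genes called that way, and lower in PANC-1 for 1506, with 26.6% of all tested genes called that way. These shares lie near the background. Differences of at least 1 on the log2 scale were called for 239 of 5570 members, 145 higher and 94 lower in PANC-1. That is a lower share than the 7.73% of all tested genes that passed the same rule. No share by direction stands beside the 145 and 94. The median standard error of the difference was 0.11. Without PANC-1 GEM replicate 1 the difference was called for 3813 members, 1701 higher and 2112 lower in PANC-1, beside 65% of all tested genes, and 2745 of the 2756 calls were among them.

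The members with a called difference fell into several kinds of response. In 1218 of them the change was called in BxPC3 alone (21.9% of members, beside 23.6% of all tested genes), in 384 in PANC-1 alone (6.89% beside 11%), and in 51 in neither line (0.916% beside 2.41%). Both lines moved the same way but further in BxPC3 for 420 members (7.54% beside 5.07%), and further in PANC-1 for 225 (4.04% beside 3.33%). The lines moved in opposite directions for 458 members. Leaving out PANC-1 GEM replicate 1 turned these counts to 842 in BxPC3 alone, 721 in PANC-1 alone, 27 in neither, 889 further in BxPC3, 402 further in PANC-1 and 932 opposite. Of the 458 over all 16 libraries, 207 rose in PANC-1 and fell in BxPC3, or 3.72% of members, where 3.11% of all tested genes did. The other 251 rose in BxPC3 and fell in PANC-1, or 4.51%, where 3.28% of all tested genes did. These 2 counts were 373 and 559 without PANC-1 GEM replicate 1. The class counts without that library have no share over all tested genes beside them. There 65% of all tested genes had a called difference, against 51.8% over all 16 libraries, so these counts are not read as particular to members.

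In BxPC3 2149 members rose and 2033 fell, where 37.3% and 36.1% of its tested genes did. In PANC-1 1010 rose and 1348 fell, where 20.7% and 24% of its tested genes did, and 1761 rose and 2373 fell without PANC-1 GEM replicate 1. The PANC-1 changes were measured less tightly, with a median standard error of 0.09 against 0.05 in BxPC3, so a call in BxPC3 alone does not by itself mean a smaller change in PANC-1. Across the 5570 members, which are not independent replicates, the 2 lines' changes had a Pearson r of 0.461 and a Spearman rho of 0.422, and 64.2% had the same sign. The lines share no library. Of 1885 members called in both lines 1427 moved in the same direction, and for 782 of these no difference was called, or 943 of 2234 without PANC-1 GEM replicate 1. No share over all tested genes stands beside these counts, so they are not read as particular to members.

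**Figure D1:**
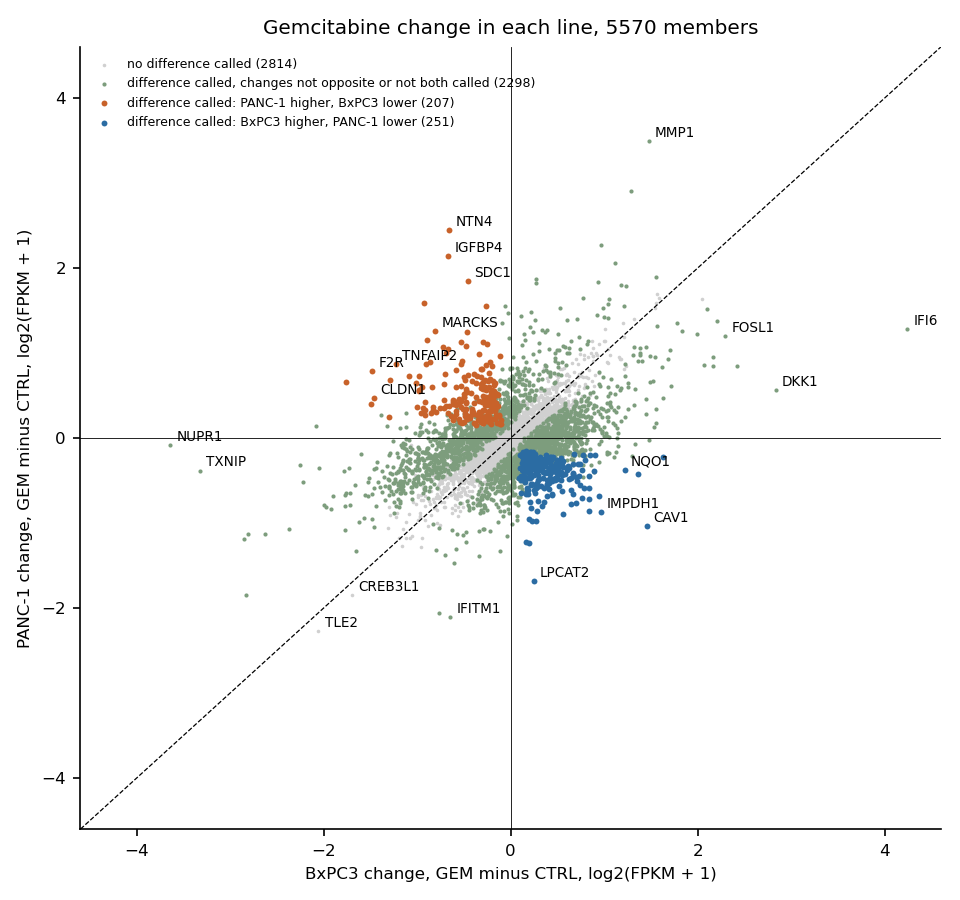
Change with gemcitabine in BxPC3 (horizontal) and PANC-1 (vertical) on log2(FPKM + 1), 1 point per member (5570), with the line of equal change dashed. The 207 members that rose in PANC-1 and fell in BxPC3 (orange) and the 251 with the reverse (blue) fill the 2 corners away from the dashed line, and NUPR1, TXNIP, IFI6 and MMP1 lie farthest out.

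Folds below are ratios of mean FPKM, and changes on log2(FPKM + 1) understate those of low genes. NUPR1 and TXNIP had the deepest falls in BxPC3 among the genes named here, and moved far less in PANC-1. NUPR1 (ENSG00000176046, chr16:28532708-28539174, minus strand, GRCh38) encodes a small nuclear protein induced by cell stress. NUPR1 read 31.4, 36.96, 31.7 and 32.3 FPKM in BxPC3 controls and 1.69, 1.81, 1.52 and 1.903 with gemcitabine, against 24.05, 24.9, 24.9 and 25.6 in PANC-1 controls and 28.4, 22.6, 22.2 and 21.3 with gemcitabine. It dropped below all controls in each treated BxPC3 library, whereas the PANC-1 groups were not separate. There replicate 1 of the treated libraries lay above all controls, at 28.4 FPKM, and the other treated libraries lay below all controls. Treated libraries lay on 1 side of all controls for 63.1% of all tested genes in BxPC3 and for 44% in PANC-1. The NUPR1 mean was 19.1-fold lower with gemcitabine in BxPC3, a log2 change of -3.64. The PANC-1 change of -0.08, with replicate 1 included, did not pass the test. The difference was 3.56 ± 0.11 (SE), with a limma adjusted p of 5.41e-13.

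TXNIP (ENSG00000265972, chr1:145992435-145996600, minus strand) encodes an arrestin-family protein that binds thioredoxin and limits glucose uptake. TXNIP read 777, 806, 777 and 777 FPKM in BxPC3 controls and 77.9, 77.6, 76.5 and 77.7 with gemcitabine, against 30.9, 28.9, 29.97 and 29.9 in PANC-1 controls and 21.4, 23.2, 22.1 and 24.3 with gemcitabine. Treated libraries lay below all controls in both lines, by 10.1-fold (BxPC3) and 1.32-fold (PANC-1) as ratios of means. The difference was 2.94 ± 0.06 (SE), with a limma adjusted p of 8.14e-15. The PANC-1 controls started far lower than the BxPC3 controls. ARRDC4, a related arrestin, had log2 changes of -2.05 in BxPC3 and -0.35 in PANC-1, a difference of 1.698 ± 0.10 (SE).

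The stretch upstream of TXNIP is shown because its known glucose response runs through a pair of CACG boxes. The sequence comes from the RefSeq promoter table (GRCh38.p14), 5′ to 3′, without bases that GENCODE 29 puts in an exon of the gene. Capitals mark the match to CACGNG and CNCGNG set 5 bases apart (N is any base), searched on both strands, which begins 88 bases before the RefSeq start. The motif and the gene were chosen after the values were seen.
TXNIP, chr1:145996601-145996829, minus strand: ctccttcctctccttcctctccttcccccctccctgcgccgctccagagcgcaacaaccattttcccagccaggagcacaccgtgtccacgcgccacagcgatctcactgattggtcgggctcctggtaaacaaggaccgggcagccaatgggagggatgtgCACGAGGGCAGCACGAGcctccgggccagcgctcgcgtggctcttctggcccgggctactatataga
In 250 bases upstream, 120 of 27305 promoters held this motif (0.439%), and 39 of 4467 promoters of members did (0.873%). ARRDC4 had no match in its window.

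AGR2, a disulfide isomerase relative of the endoplasmic reticulum that helps fold mucins, completed this group. AGR2 read 127, 151, 127 and 129.7 FPKM in BxPC3 controls and 30.5, 29.05, 29.6 and 33.6 with gemcitabine, against 39.4, 35.05, 36.7 and 38.99 in PANC-1 controls and 36.4, 42.6, 42.7 and 43.9 with gemcitabine. BxPC3 fell 4.36-fold with no overlap. The PANC-1 groups overlapped through replicate 1 of the treated libraries alone, at 36.4 FPKM, and the change of 0.14 did not pass the test. The other treated PANC-1 libraries lay above all PANC-1 controls. The difference was 2.22 ± 0.10 (SE), with a limma adjusted p of 5.19e-11, and 2.28 without PANC-1 GEM replicate 1.

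A second set rose in PANC-1 while it fell in BxPC3. NTN4 (ENSG00000074527, chr12:95657807-95791152, minus strand) encodes netrin-4, a secreted protein that binds laminins of the basement membrane. NTN4 read 43.6, 44.3, 44.03 and 44.9 FPKM in BxPC3 controls and 26.4, 27.7, 28.7 and 27.8 with gemcitabine, against 7.82, 8.702, 7.83 and 8.24 in PANC-1 controls and 48.3, 49.3, 49.6 and 48.4 with gemcitabine. It rose 6.0002-fold in PANC-1, from the lowest of the 4 groups to the highest, and fell 1.5998-fold in BxPC3, with no overlap in either line. The difference was 3.11 ± 0.06 (SE), with a limma adjusted p of 3.21e-15, the smallest p among the genes named here.

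IGFBP4 encodes a secreted protein that binds insulin-like growth factors. IGFBP4 read 279, 318, 279.7 and 281 FPKM in BxPC3 controls and 177, 173, 192 and 184 with gemcitabine, against 53.2, 58.6, 56.996 and 54.3 in PANC-1 controls and 329.5, 231, 229.6 and 219 with gemcitabine. The rise in PANC-1 was 4.52-fold and the fall in BxPC3 1.59-fold, with no overlap in either line. Replicate 1 of the treated PANC-1 libraries was the highest of its group, and the difference of 2.81 ± 0.14 (SE) was 2.67 without it. SDC1 encodes syndecan-1, a heparan sulfate proteoglycan of epithelial surfaces. SDC1 read 211, 206, 209 and 211 FPKM in BxPC3 controls and 146, 152, 155 and 157 with gemcitabine, against 17.1, 18.3, 18.2 and 16.6 in PANC-1 controls and 80.7, 61.3, 62.1 and 60.3 with gemcitabine. Despite a 3.77-fold rise, treated PANC-1 stayed below every BxPC3 library. The difference was 2.299 ± 0.11 (SE), with a limma adjusted p of 4.49e-11.

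F2R encodes the thrombin receptor PAR1. F2R read 8.75, 7.87, 8.54 and 8.86 FPKM in BxPC3 controls and 2.85, 2.26, 1.98 and 2.58 with gemcitabine, against 25.1, 24.3, 24.5 and 26.1 in PANC-1 controls and 38.2, 45.1, 45.6 and 46.5 with gemcitabine. Unlike the members above, it was higher in PANC-1 controls than in BxPC3 controls, so treatment widened the gap between the lines. TNFAIP2, a gene induced by tumour necrosis factor, read 284, 268, 294 and 288 FPKM in BxPC3 controls and 122, 119.6, 122 and 119.8 with gemcitabine, against 11.7, 11.1, 12.1 and 11.3 in PANC-1 controls and 26.02, 20.7, 20.7 and 20.98 with gemcitabine. Here the gap narrowed, since BxPC3 fell 2.35-fold from the higher level. MARCKS, a protein kinase C substrate that tethers actin to the membrane, read 101, 103, 103 and 101 FPKM in BxPC3 controls and 55.4, 58.3, 60.2 and 57.5 with gemcitabine, against 10.2, 9.77, 10.9 and 10.1 in PANC-1 controls and 21.03, 28.04, 27.1 and 28.1 with gemcitabine. The MARCKS groups were separate in both lines, and the gap narrowed again. The differences were 2.27 ± 0.11 (SE) for F2R, 2.101 ± 0.09 (SE) for TNFAIP2 and 2.07 ± 0.10 (SE) for MARCKS, with limma adjusted p-values of 7.30e-11, 2.08e-11 and 1.32e-10.

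The tight junction gene CLDN1 read 242, 238, 240.0 and 242 FPKM in BxPC3 controls and 90.7, 87.1, 86.3 and 82.4 with gemcitabine, against 20.4, 20.96, 21.8 and 21.5 in PANC-1 controls and 26.4, 31.5, 30.3 and 30.6 with gemcitabine. It fell 2.78-fold in BxPC3 and rose 1.402-fold in PANC-1, with no overlap in either line, and the difference was 1.93 ± 0.07 (SE), with a limma adjusted p of 5.93e-12. The following also rose in PANC-1 and fell in BxPC3. CYBRD1, an iron-reducing cytochrome of the membrane, had log2 changes of -1.76 in BxPC3 and 0.66 in PANC-1. S100A6, a calcium-binding protein, had log2 changes of -0.90 in BxPC3 and 1.15 in PANC-1. The calcium pump gene ATP2B4 had log2 changes of -1.09 in BxPC3 and 0.73 in PANC-1. EPS8, which links receptor signals to actin, had log2 changes of -0.90 in BxPC3 and 0.87 in PANC-1, and PAK1, a kinase of the actin cytoskeleton, of -0.98 in BxPC3 and 0.73 in PANC-1. UBALD2 had log2 changes of -0.87 in BxPC3 and 0.90 in PANC-1. Their differences ran from 1.71 to 2.42.

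**Figure D2:**
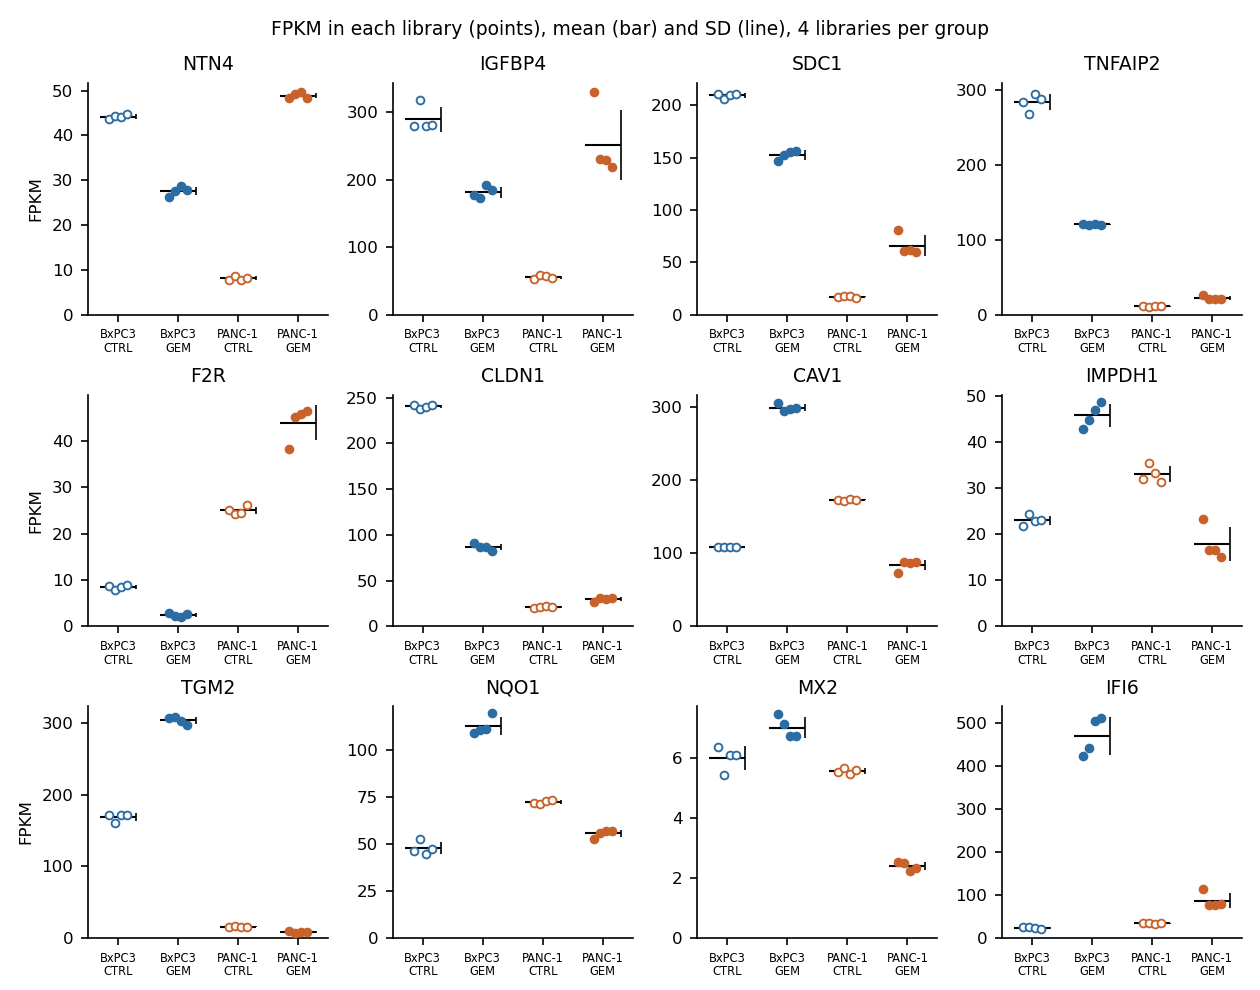
FPKM in each library for 12 members, with the mean as a bar and the SD as a line, 4 libraries per group, BxPC3 in blue and PANC-1 in orange, controls as open points and gemcitabine as filled points. NTN4, IGFBP4, SDC1, TNFAIP2, F2R and CLDN1 fell in BxPC3 and rose in PANC-1, CAV1, IMPDH1, TGM2, NQO1 and MX2 did the reverse, and IFI6 rose in both lines. Each panel has its own axis, which starts at 0.

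The reverse pattern was led by CAV1 (ENSG00000105974, chr7:116524785-116561184, plus strand), which encodes the coat protein of caveolae. CAV1 read 108, 108, 108 and 108 FPKM in BxPC3 controls and 305, 294, 297 and 298 with gemcitabine, against 173, 172, 174 and 173 in PANC-1 controls and 73.4, 87.7, 87.2 and 87.6 with gemcitabine. It rose 2.76-fold in BxPC3 and fell 2.06-fold in PANC-1, so that the order of the 2 lines turned over with treatment. The difference was -2.49 ± 0.07 (SE), with a limma adjusted p of 2.96e-13. CAV1 was the 1 member whose changes were opposite and at least 1 on the log2 scale in both lines.

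IMPDH1 encodes inosine monophosphate dehydrogenase, the committed step of guanine nucleotide synthesis. IMPDH1 read 21.7, 24.4, 22.8 and 23.1 FPKM in BxPC3 controls and 42.8, 44.8, 47.1 and 48.6 with gemcitabine, against 32.03, 35.5, 33.4 and 31.4 in PANC-1 controls and 23.2, 16.6, 16.6 and 15.1 with gemcitabine. The treated groups lay on opposite sides of their controls, 1.99-fold higher in BxPC3 and 1.85-fold lower in PANC-1. Its difference was -1.83 ± 0.14 (SE), with a limma adjusted p of 1.37e-08. TGM2, a transglutaminase that crosslinks proteins, read 171, 161, 172 and 171 FPKM in BxPC3 controls and 306, 308, 302 and 297 with gemcitabine, against 15.8, 16.3, 15.6 and 14.7 in PANC-1 controls and 10.1, 7.55, 7.596 and 7.56 with gemcitabine. It rose in BxPC3, where it was already high, and fell in PANC-1, a difference of -1.700 ± 0.10 (SE), with a limma adjusted p of 1.12e-09.

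NQO1, a quinone reductase and a standard target of the antioxidant factor NRF2, read 46.3, 52.4, 44.8 and 47.4 FPKM in BxPC3 controls and 109, 110.3, 111 and 119 with gemcitabine, against 71.4, 71.003, 72.6 and 73.3 in PANC-1 controls and 52.6, 55.5, 56.9 and 56.8 with gemcitabine. Controls were lower in BxPC3 than in PANC-1 and treated libraries were higher, with no overlap anywhere. The difference was -1.59 ± 0.07 (SE), with a limma adjusted p of 4.48e-11. AKR1B1, the aldose reductase gene, had log2 changes of 1.63 in BxPC3 and -0.22 in PANC-1. Members of the aldo-keto reductase family resemble each other, so how its reads were assigned is uncertain.

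Other named members of this kind had these changes. HMGB3, a chromatin protein, had log2 changes of 0.95 in BxPC3 and -0.68 in PANC-1, and CDK6, a kinase of G1 phase, of 0.70 in BxPC3 and -0.76 in PANC-1. The activin-binding protein gene FSTL3 had log2 changes of 0.84 in BxPC3 and -0.71 in PANC-1. RGS10, a brake on G protein signals, had log2 changes of 0.67 in BxPC3 and -0.66 in PANC-1. HIST1H2BK, a histone gene with near-identical copies and therefore uncertain, had log2 changes of 0.76 in BxPC3 and -0.70 in PANC-1. The membrane transporter gene SLC4A11 had log2 changes of 1.37 in BxPC3 and -0.42 in PANC-1, and LPCAT2, an acyltransferase of membrane lipids, of 0.25 in BxPC3 and -1.69 in PANC-1, so that nearly all of the LPCAT2 difference of -1.93 came from PANC-1.

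The genes given below as examples of a list are up to 3 of its members with the smallest p, so their differences were called, unless said otherwise. A PANC-1 change marked not called is not always a flat one. For ATP5MC1, HYOU1, CCT3, ABCC1, PSMD11, TPM3, AARS, PLK2 and BID, treated PANC-1 libraries other than replicate 1 lay on 1 side of all PANC-1 controls. Replicate 1 did not lie on that side. The counts of each list are to be read beside those over all 5570 members: 1250 higher, 1506 lower and 2814 not called. Interferon-stimulated genes, which restrict viruses and mark the response to interferon, did not follow 1 pattern. Of 55 listed, 13 were members, and the difference was higher in PANC-1 for 4, lower for 5 and not called for 4. In BxPC3 8 rose and 4 fell, and in PANC-1 9 rose and 3 fell. IFI6 (ENSG00000126709, chr1:27666061-27672218, minus strand), a small interferon-induced membrane protein, read 25.4, 26.04, 23.4 and 21.1 FPKM in BxPC3 controls and 425, 442, 505 and 513 with gemcitabine, against 34.7, 34.05, 33.5 and 35.8 in PANC-1 controls and 114, 77.7, 76.5 and 79.1 with gemcitabine. It rose in both lines with no overlap, 19.6-fold (BxPC3) and 2.51-fold (PANC-1). Its difference was -2.95 ± 0.16 (SE), with a limma adjusted p of 2.18e-10, and -3.09 without PANC-1 GEM replicate 1, the highest of its group.

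IFITM1, which blocks virus entry at the cell membrane, read 151, 178, 155 and 157 FPKM in BxPC3 controls and 91.02, 101, 102 and 115 with gemcitabine, against 144, 159, 155 and 158 in PANC-1 controls and 37.7, 33.5, 34.96 and 33.4 with gemcitabine. The controls of the 2 lines overlapped, and it fell further in PANC-1, by 4.41-fold against 1.57-fold, a difference of -1.46 ± 0.10 (SE), with a limma adjusted p of 5.84e-09. IFITM2 overlaps IFITM1 on the same strand and held reads equal to 71.7% of those of IFITM1, so the split between them is uncertain. MX2, a dynamin-like antiviral protein, read 6.35, 5.43, 6.08 and 6.07 FPKM in BxPC3 controls and 7.45, 7.11, 6.71 and 6.72 with gemcitabine, against 5.52, 5.64, 5.44 and 5.59 in PANC-1 controls and 2.52, 2.49, 2.22 and 2.32 with gemcitabine. It rose slightly in BxPC3 and fell 2.32-fold in PANC-1, with a difference of -1.15 ± 0.07 (SE), with a limma adjusted p of 1.67e-09. Named after their values were seen, ISG15 changed by 2.42 in BxPC3 and 0.85 in PANC-1, and IFIT3 by 2.06 and 0.86.

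The upstream stretch of IFI6 is shown because interferon-activated factors bind repeats of GAAA. It comes from the same RefSeq table, without exon bases, and capitals mark matches to GAAA, any 2 bases and GAAA on either strand, the first bases of which lie 156, 115 and 93 bases before the RefSeq start.
IFI6, chr1:27672219-27672442, minus strand: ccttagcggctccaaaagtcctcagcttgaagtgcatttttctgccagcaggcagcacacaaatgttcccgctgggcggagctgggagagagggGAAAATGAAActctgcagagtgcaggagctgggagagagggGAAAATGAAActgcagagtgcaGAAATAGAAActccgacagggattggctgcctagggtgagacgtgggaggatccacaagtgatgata
IFITM1 held 1 match, GAAATAGAAA, 40 bases before its RefSeq start, inside an exon of another GENCODE 29 transcript of the gene. The motif stood in 27 of the 42 list promoters in the table (64.3%), in 8 of 10 list promoters of members (80%), in 6 of 8 with a called difference (75%), and in 839 of all 27305 promoters (3.07%). A match describes letters and says nothing of binding in these cells.

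Secreted inflammatory and senescence factors had 14 members, of which 10 rose in each line. MMP1, the interstitial collagenase, read 29.5, 32.8, 29.4 and 32.4 FPKM in BxPC3 controls and 88.2, 84.4, 89.5 and 90.3 with gemcitabine, against 8.09, 8.27, 8.18 and 7.89 in PANC-1 controls and 92.4, 105, 106 and 103 with gemcitabine. It rose 2.84-fold (BxPC3) and 12.5-fold (PANC-1), so that treated PANC-1 lay above treated BxPC3 from a lower start, a difference of 2.01 ± 0.08 (SE), with a limma adjusted p of 4.00e-12. For this list the difference was higher in PANC-1 for 5 members and lower for 4, and its median difference of -0.02 gives no direction. Omitting PANC-1 GEM replicate 1 gave 6 and 7.

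DKK1, a secreted antagonist of Wnt signals, read 10.2, 11.02, 10.1 and 10.3 FPKM in BxPC3 controls and 79.3, 78.5, 80.6 and 82.7 with gemcitabine, against 30.99, 32.5, 33.2 and 32.9 in PANC-1 controls and 45.1, 48.4, 48.98 and 51.7 with gemcitabine. It rose 7.71-fold (BxPC3) and 1.499-fold (PANC-1), with no overlap, and the lines changed rank. The difference was -2.27 ± 0.07 (SE), with a limma adjusted p of 2.96e-13.

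Epithelial junction and keratin genes were called higher in PANC-1 more often than lower. Of 28 members, 16 rose and 1 fell in PANC-1, or 17 and 4 without PANC-1 GEM replicate 1, while in BxPC3 11 rose and 10 fell. The difference was higher in PANC-1 for 17 and lower for 3, with a median of 0.45 beside -0.04 over all members. Leaving out PANC-1 GEM replicate 1 gave counts of 17 and 5. PPL, which encodes the desmosomal plakin periplakin, had log2 changes of 0.27 in BxPC3 and 1.87 in PANC-1.

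Growth factor and immediate early genes leaned the same way. EGFR ligands and MAPK feedback genes had 17 members, with a difference higher in PANC-1 for 8 and lower for 4. In each line 8 rose and 5 fell, or 10 and 5 in PANC-1 without PANC-1 GEM replicate 1. The list counts CCND1, which the G1/S list below counts too. CCND1, the G1 cyclin induced by growth signals, read 71.9, 68.6, 73.7 and 72.4 FPKM in BxPC3 controls and 70.2, 71.9, 69.97 and 67.98 with gemcitabine, against 60.9, 62.2, 60.8 and 61.3 in PANC-1 controls and 161, 179, 173 and 175 with gemcitabine. The BxPC3 groups overlapped, and PANC-1 rose 2.804-fold, a difference of 1.504 ± 0.06 (SE), with a limma adjusted p of 1.19e-11. DUSP5, a phosphatase that switches off ERK, had log2 changes of 0.39 in BxPC3 and 1.27 in PANC-1, whereas SPRY2, an inhibitor of receptor signals, had log2 changes of -0.14 in BxPC3 and -0.98 in PANC-1.

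AP-1 and immediate early factors had 17 members, 8 higher and 2 lower in PANC-1, or 8 and 4 without PANC-1 GEM replicate 1. Over all libraries 4 of them rose in PANC-1 and fell in BxPC3. BHLHE40, a repressor tied to the clock and to hypoxia, was one of those, at -0.92 in BxPC3 and 0.27 in PANC-1. KLF10, a zinc finger factor induced by TGF-beta, had log2 changes of -0.81 in BxPC3 and -0.02 in PANC-1 (not called). FOSL1, the AP-1 subunit FRA1, went the other way, at 2.29 in BxPC3 and 1.195 in PANC-1. NF-kB factors and feedback genes had 16 members, of which 10 fell in BxPC3 and 1 fell in PANC-1 (4 without PANC-1 GEM replicate 1). The difference was higher in PANC-1 for 8 and lower for 3, or for 9 and 5 without it. TNFAIP2, given above, led it. IRAK2, a kinase below the interleukin-1 receptor, had log2 changes of -0.59 in BxPC3 and 0.28 in PANC-1, and NFKB1, the p105 subunit gene, of -0.26 in BxPC3 and 0.14 in PANC-1 (not called).

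Targets of YAP and TGF-beta leaned to BxPC3. Of 26 members, 14 were lower and 5 higher in PANC-1, with a median difference of -0.30. FSTL1, a secreted glycoprotein, had log2 changes of 1.22 in BxPC3 and 0.25 in PANC-1, and the TGF-beta receptor gene TGFBR2 of 0.47 in BxPC3 and -0.48 in PANC-1. Contractile actin genes had 36 members, of which 30 rose in BxPC3 and 16 in PANC-1, and 15 were lower and 5 higher in PANC-1. MYL9, the regulatory light chain of non-muscle and smooth muscle myosin, had log2 changes of 0.33 in BxPC3 and -0.80 in PANC-1, and TPM3, a tropomyosin, of 0.67 in BxPC3 and 0.07 in PANC-1 (not called).

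Class I antigen presentation had 11 members, 4 higher and 1 lower in PANC-1. B2M, the light chain of the class I complex that shows peptides to T cells, had log2 changes of 0.13 in BxPC3 (not called) and 0.64 in PANC-1. CALR, the chaperone calreticulin, had log2 changes of 0.61 in BxPC3 and -0.33 in PANC-1. The counts were 4 and 3 without PANC-1 GEM replicate 1.

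Over all 16 libraries, called differences ran in 1 direction alone for ribosomal proteins, nucleolar factors and heat shock proteins. The mitochondrial genome list held a single called difference. Cytosolic ribosomal proteins form the ribosome itself. Of 75 members, 73 fell in BxPC3 and 62 in PANC-1, and none rose in either line. The fall was deeper in BxPC3, with a median change of -0.91 against -0.39. The difference was called for 58, all 58 higher in PANC-1. RPL37 had log2 changes of -1.29 in BxPC3 and -0.42 in PANC-1, RPS4X of -1.22 in BxPC3 and -0.41 in PANC-1 and RPL27A of -1.09 in BxPC3 and -0.28 in PANC-1. Ribosomal protein genes have many processed pseudogenes, so how their reads were assigned is uncertain. Omitting PANC-1 GEM replicate 1 gave 61 higher and 1 lower.

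Nucleolar ribosome assembly factors, which process ribosomal RNA, moved the other way in BxPC3. Of 37 members, 35 rose and none fell in BxPC3, with a median of 0.61, while in PANC-1 11 rose and 3 fell, with a median of 0.19, or 23 rose and 4 fell without PANC-1 GEM replicate 1. The difference was lower in PANC-1 for 27 and higher for none, or for 30 and 1 without that library. NOP56, a core protein of box C/D snoRNPs, had log2 changes of 1.04 in BxPC3 and 0.20 in PANC-1. The nucleolar phosphoprotein gene NOLC1 had log2 changes of 0.71 in BxPC3 and -0.10 in PANC-1 (not called), and RRS1, a large-subunit assembly factor, of 0.78 in BxPC3 and -0.59 in PANC-1, opposite in the 2 lines.

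Heat shock proteins and the CCT chaperonin, which folds actin and tubulin, had 25 members. In BxPC3 18 rose and 4 fell, with a median of 0.55, and in PANC-1 4 rose and 7 fell, with a median of 0.00, or 8 rose and 9 fell without PANC-1 GEM replicate 1. The difference was lower in PANC-1 for 19 and higher for none. AHSA1, the activator of the HSP90 ATPase, had log2 changes of 0.55 in BxPC3 and -0.62 in PANC-1. The chaperonin subunits CCT2 and CCT3 had log2 changes of 0.85 and 0.79 in BxPC3 and of -0.20 and -0.14 (not called) in PANC-1.

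Proteasome subunits had 36 members, of which 31 rose and 1 fell in BxPC3, and 13 rose and 3 fell in PANC-1, or 20 and 6 without PANC-1 GEM replicate 1. The difference was lower in PANC-1 for 19 and higher for 1, with a median of -0.28. PSMC2, an ATPase of the regulatory cap, had log2 changes of 0.43 in BxPC3 and -0.32 in PANC-1. The catalytic subunit gene PSMB5 had log2 changes of 0.52 in BxPC3 and -0.31 in PANC-1, and PSMD11, a lid subunit, of 0.73 in BxPC3 and 0.04 in PANC-1 (not called). Cytosolic tRNA synthetases were mixed, with 5 higher and 7 lower of 22 members. AARS had log2 changes of -0.76 in BxPC3 and -0.09 in PANC-1 (not called), YARS of -0.25 in BxPC3 and 0.39 in PANC-1 and WARS of 0.26 in BxPC3 and -0.65 in PANC-1. The differences of the alanine and tyrosine enzymes were 0.67 and 0.64, and that of the tryptophan enzyme -0.91. Leaving out PANC-1 GEM replicate 1 gave counts of 8 and 8.

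**Figure D3:**
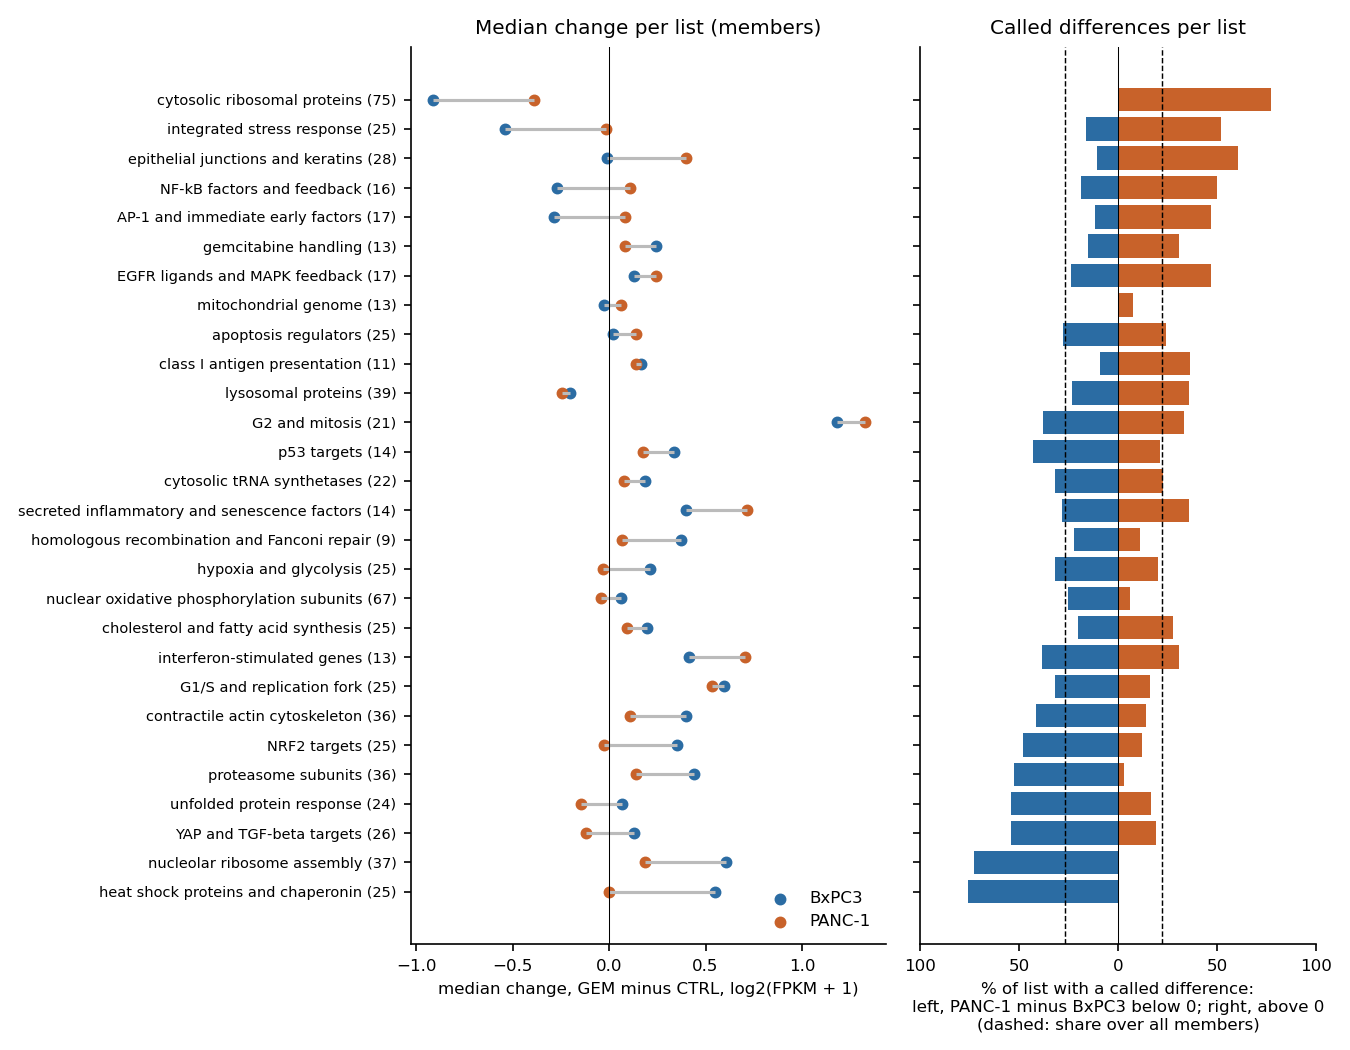
Left, median change with gemcitabine on log2(FPKM + 1) in BxPC3 (blue) and PANC-1 (orange) for the members of each of 28 gene lists, with the number of members in brackets. Right, percent of each list's members with a called difference below 0 (blue, left) and above 0 (orange, right), with the shares over all members dashed. Ribosomal proteins show differences above 0 alone (58 of 75), and heat shock proteins and nucleolar factors differences below 0 alone (19 of 25 and 27 of 37).

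**Figure D4:**
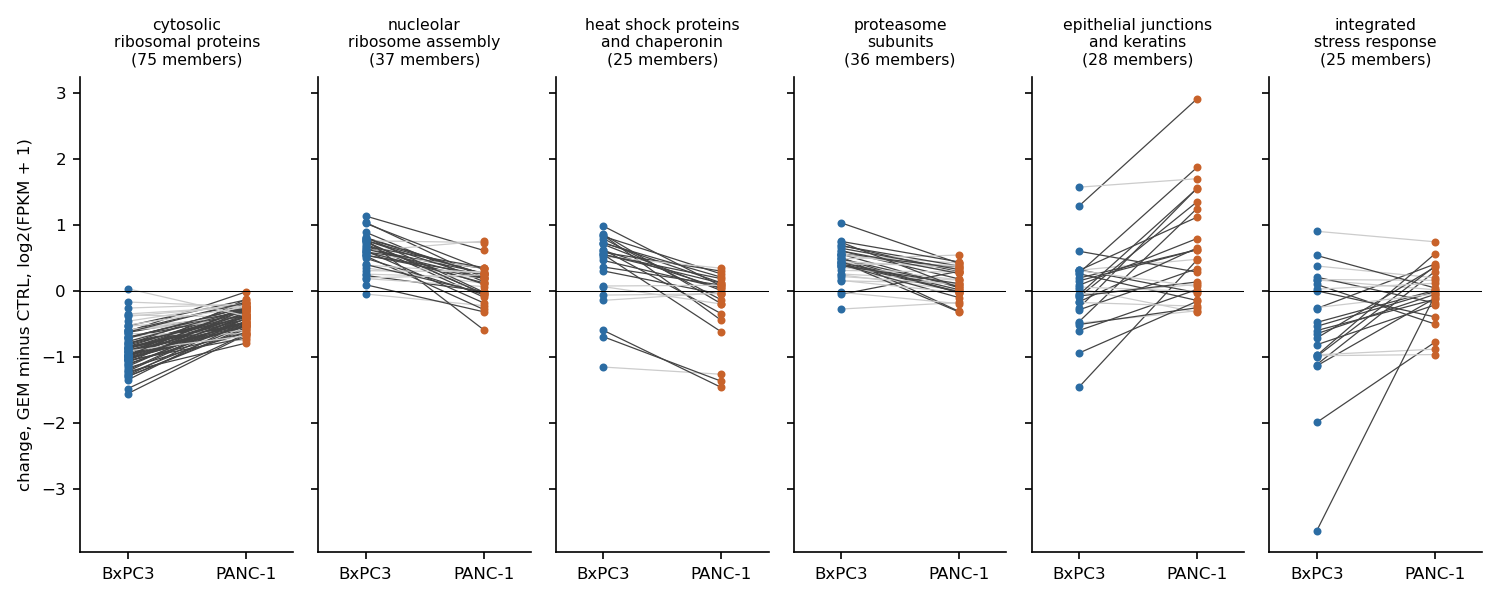
Change with gemcitabine on log2(FPKM + 1) in BxPC3 and PANC-1 for every member of 6 lists, with a line joining the 2 values of a gene, dark where the difference was called. Ribosomal protein genes run upward from a median of -0.91 in BxPC3 to -0.39 in PANC-1, and heat shock genes downward from 0.55 to 0.00.

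Stress programmes also split. The integrated stress response is a programme of ATF4 targets that import and make amino acids. Of its 25 members, 16 fell and 5 rose in BxPC3, while in PANC-1 6 fell and 4 rose, or 13 and 10 without PANC-1 GEM replicate 1. The difference was higher in PANC-1 for 13 and lower for 4, with a median of 0.47, or for 13 and 7 without it. Beside NUPR1, SESN2, a stress-induced brake on mTORC1, had log2 changes of -0.98 in BxPC3 and 0.56 in PANC-1, and the glutamine transporter gene SLC1A5 of -1.12 in BxPC3 and 0.29 in PANC-1 (not called).

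The unfolded protein response, the programme of endoplasmic reticulum chaperones, had 24 members, 13 lower and 4 higher in PANC-1. The chaperone gene HYOU1 had log2 changes of 0.77 in BxPC3 and -0.13 in PANC-1 (not called), and PDIA4, a disulfide isomerase, of 0.39 in BxPC3 and -0.54 in PANC-1. HERPUD1, a part of the degradation machinery of the reticulum, went the other way, at -0.83 in BxPC3 and -0.01 in PANC-1 (not called). NRF2 targets had 25 members, of which 15 rose in BxPC3 and 3 in PANC-1 (9 without PANC-1 GEM replicate 1), and 12 were lower and 3 higher in PANC-1. NQO1 and AKR1B1 are given above, and TXNRD1, the cytosolic thioredoxin reductase, had log2 changes of 1.33 in BxPC3 and -0.07 in PANC-1 (not called). The counts were 15 lower and 5 higher without PANC-1 GEM replicate 1.

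Metabolic lists held differences in both directions, as did all 5570 members, with 1250 higher and 1506 lower in PANC-1. Differences were called for 52% of the hypoxia and glycolysis list and 48% of the cholesterol and fatty acid list, near the 49.5% of all members. Hypoxia and glycolysis genes had 25 members, with 5 higher and 8 lower in PANC-1, or 7 and 12 without PANC-1 GEM replicate 1. SLC2A1, the glucose transporter GLUT1, had log2 changes of 0.11 in BxPC3 and 1.43 in PANC-1, while TXNIP and ARRDC4 belong to the same list. Cholesterol and fatty acid synthesis genes had 25 members, 7 higher and 5 lower, and 7 and 13 without that library. ACLY, which makes cytosolic acetyl-CoA, had log2 changes of 1.0 in BxPC3 and 0.02 in PANC-1 (not called), and HMGCS1, of the mevalonate path, of 1.32 in BxPC3 and 0.39 in PANC-1. SCD, the stearoyl-CoA desaturase, had log2 changes of -1.07 in BxPC3 and -0.25 in PANC-1.

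Lysosomal proteins had 39 members, of which 22 fell in BxPC3 and 17 in PANC-1 (29 without PANC-1 GEM replicate 1), with 14 higher and 9 lower in PANC-1, or 15 and 14 without that library. FUCA1, a fucosidase, had log2 changes of -1.18 in BxPC3 and 0.12 in PANC-1 (not called), GLA, a galactosidase, of 0.97 in BxPC3 and 0.06 in PANC-1 (not called), and the cholesterol exporter gene NPC1 of 0.54 in BxPC3 and -0.49 in PANC-1. Nuclear subunits of oxidative phosphorylation had 67 members, 4 higher and 17 lower in PANC-1. The ATP synthase genes ATP5F1B, ATP5MF and ATP5MC1 had log2 changes of 0.32, 0.42 and 0.78 in BxPC3 and of -0.31, -0.47 and -0.16 (not called) in PANC-1. Treated PANC-1 libraries of ATP5MC1 other than replicate 1 lay below all PANC-1 controls. The gene CPSF4 overlaps ATP5MF on the opposite strand and held reads equal to 72.4% of those of ATP5MF. Of the 13 listed genes of the mitochondrial genome 1 differed, MT-CYB of complex III, at -0.34 in BxPC3 and 0.30 in PANC-1. Without PANC-1 GEM replicate 1, 6 of them differed. Other mitochondrial members were outside the list, such as the ribosomal RNA gene MT-RNR1, with a difference of 0.67.

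Most genes of both cell cycle lists rose in both lines. All 21 members of the G2 and mitosis list rose in BxPC3 and 19 rose in PANC-1, with median changes of 1.18 and 1.32. Bulk RNA cannot tell more cells in mitosis from more of these mRNAs per cell. CCNB1, the cyclin that drives entry into mitosis, read 18.8, 19.8, 17.99 and 19.5 FPKM in BxPC3 controls and 55.9, 56.4, 58.2 and 58.8 with gemcitabine, against 21.6, 20.02, 20.9 and 21.9 in PANC-1 controls and 59.6, 64.3, 63.005 and 63.4 with gemcitabine. It rose 3.01-fold (BxPC3) and 2.97-fold (PANC-1), with no overlap in either line. The 95% interval of the CCNB1 difference was -0.16 to 0.12. For the list the difference was higher in PANC-1 for 7 and lower for 8, and its median changed sign with scaling, so no direction is given. KIF2C, a microtubule-depolymerising kinesin, had log2 changes of 1.24 in BxPC3 and 1.79 in PANC-1. CKS1B and CKS2, small partners of cyclin-dependent kinases, had log2 changes of 0.58 and 1.11 in BxPC3 and of -0.09 (not called) and 0.52 in PANC-1.

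The largest changes of nearly equal size were taken as members called in both lines whose 95% interval of the difference lay within 0.5 of 0. Upward these were CCNB1, ANLN, BIRC5 and AURKA of cell division, KRT80, a keratin, and SRGN, a proteoglycan of secretory granules. Their changes ran from 1.32 to 1.59 in BxPC3 and from 1.32 to 1.699 in PANC-1. The AURKA difference of -0.24 ± 0.07 (SE) was nonetheless called, with a limma adjusted p of 0.0127, though not by limma-voom on the recovered reads, where it was -0.17. Without PANC-1 GEM replicate 1 ANLN, an actin-binding protein of the cleavage furrow, was called too, at 0.20. Downward they were CREB3L1, TLE2, IRF2BPL, ASAP3, SPRY1 and CRELD1. CREB3L1, a membrane-bound transcription factor of the secretory pathway, read 18.02, 18.6, 19.4 and 18.7 FPKM in BxPC3 controls and 4.81, 4.86, 5.23 and 5.34 with gemcitabine, against 11.5, 11.6, 10.97 and 10.6 in PANC-1 controls and 2.94, 2.34, 2.26 and 2.07 with gemcitabine. It fell 3.69-fold (BxPC3) and 4.65-fold (PANC-1) with no overlap, and the interval of its difference was -0.34 to 0.05. That depends on the settings: the CREB3L1 difference was called with a pseudocount of 0.1 (-0.32), after TPM scaling (-0.36), with array weights (-0.22), by limma-voom on the recovered reads (-0.31), with each library's GC trend removed (-0.16) and without PANC-1 GEM replicate 1 (-0.22). TLE2, a Groucho co-repressor, had log2 changes of -2.06 in BxPC3 and -2.27 in PANC-1, with an interval of -0.41 to -0.01, and its difference was called under the same 6 settings, at -0.50 to -0.22. With array weights the IRF2BPL difference of -0.15 was called too.

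G1/S and replication fork genes had 25 members, of which 21 rose in BxPC3 and 18 in PANC-1, with 4 higher and 8 lower in PANC-1, or 4 and 12 without PANC-1 GEM replicate 1. Besides CCND1, the kinase gene CDK2 had log2 changes of 0.49 in BxPC3 and -0.05 in PANC-1 (not called). RPA3, a subunit of the single-strand binding protein, had log2 changes of 0.02 in BxPC3 (not called) and 0.69 in PANC-1, and the overlapping gene UMAD1 held reads equal to 77.9% of its own. Homologous recombination and Fanconi repair had 9 members, 1 higher and 2 lower in PANC-1, or 3 and 2 without that library. UBE2T, the ubiquitin enzyme of the Fanconi path, had log2 changes of 0.88 in BxPC3 and 0.36 in PANC-1, and RBBP8, which starts end resection, of 0.43 in BxPC3 and -0.32 in PANC-1 (not called). FANCF, an adaptor of the Fanconi core, had log2 changes of -0.27 in BxPC3 and -0.03 in PANC-1 (not called), and its difference of 0.24 was not called after TPM scaling, at 0.19.

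Targets of p53 had 14 members, 3 higher and 6 lower in PANC-1, and PLK2, a polo-like kinase, had log2 changes of 0.72 in BxPC3 and 0.18 in PANC-1 (not called). Apoptosis regulators had 25 members, 6 higher and 7 lower, or 10 and 7 without PANC-1 GEM replicate 1. The death receptor gene TNFRSF21 had log2 changes of -0.72 in BxPC3 and 1.07 in PANC-1, a difference of 1.79 ± 0.07 (SE). BID, which carries caspase-8 signals to mitochondria, had log2 changes of 0.68 in BxPC3 and -0.13 in PANC-1 (not called), and MCL1, a survival protein, of -0.05 in BxPC3 (not called) and 0.54 in PANC-1.

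Genes that take up, activate, inactivate or export gemcitabine, whose products it targets, or that are linked to resistance had 13 members of 31 listed. The difference was higher in PANC-1 for 4, lower for 2 and not called for 7, or 6, 3 and 4 without PANC-1 GEM replicate 1. RRM1, the large subunit of ribonucleotide reductase, read 13.5, 14.2, 13.6 and 13.6 FPKM in BxPC3 controls and 25.4, 24.9, 24.4 and 25.1 with gemcitabine, against 20.1, 20.003, 20.8 and 21.5 in PANC-1 controls and 38.2, 47.8, 47.3 and 48.7 with gemcitabine. It rose 1.82-fold (BxPC3) and 2.21-fold (PANC-1) with no overlap. The difference of 0.28 ± 0.09 (SE) passed the test (limma adjusted p 0.0148) but not after TPM scaling, where it was 0.21. HMGA1, a chromatin protein linked to gemcitabine resistance, had log2 changes of 0.74 in BxPC3 and 1.04 in PANC-1, a difference of 0.31 ± 0.11 (SE) that was not called without a filter on low values, nor without BxPC3 GEM replicate 1 or without PANC-1 CTRL replicate 1 or 4, where it was 0.29.

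NT5E, the ecto-5'-nucleotidase CD73, had log2 changes of 0.92 in BxPC3 and 1.44 in PANC-1. DCTD, the dCMP deaminase that also acts on the drug's monophosphate, changed by -0.05 in BxPC3 (not called) and 0.18 in PANC-1. The DCTD difference of 0.22 was not called when same-numbered libraries of a line were fitted as a block. Lower in PANC-1 were NT5C2, a cytosolic nucleotidase, at 0.25 in BxPC3 and -0.62 in PANC-1, and the exporter gene ABCC1, at 0.34 in BxPC3 and -0.18 in PANC-1 (not called). No difference was called for DCK, the activating kinase, at -0.20 ± 0.21 (SE), with a 95% interval of -0.63 to 0.24. Nor was one called for CMPK1, the next kinase, at 0.20 ± 0.19 (SE), or for the transporter SLC29A2, at 0.15 ± 0.13 (SE). The intervals of DUT, NT5C, NT5C3A and ABCC3 were -0.04 to 0.45, -0.06 to 0.71, -0.43 to 0.28 and -0.38 to 0.15. Without PANC-1 GEM replicate 1 the difference of DCK was 0.01 and that of NT5C3A 0.08, neither called, while DUT, CMPK1 and ABCC3 were called, at 0.28, 0.40 and -0.23. With each library's GC trend removed, NT5C was called, at 0.33. Reads of DCK, NT5C and NT5C2 may include those of overlapping genes, MOB1B at 118%, ARMC7 at 194% and CNNM2 at 35% of their own counts.

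The library that stood apart shifted values more than it changed their sign. With and without PANC-1 GEM replicate 1, 91.8% of members had the same sign of difference, with a median absolute shift of 0.09 and a 95th percentile of 0.18. The shift followed GC content: in the lowest quartile of members by GC the median difference was -0.03 with the library and 0.08 without it, and in the highest quartile -0.01 and -0.14. Without it 564 members of the lowest quartile were higher and 358 lower in PANC-1, and 333 and 643 of the highest quartile, against 261 and 308, and 294 and 293, over all 16 libraries. Over all libraries the transcripts of members with higher and with lower values in PANC-1 had a median GC content of 50.6% and 49.7% beside 50.3% for members with no called difference.

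**Figure D5:**
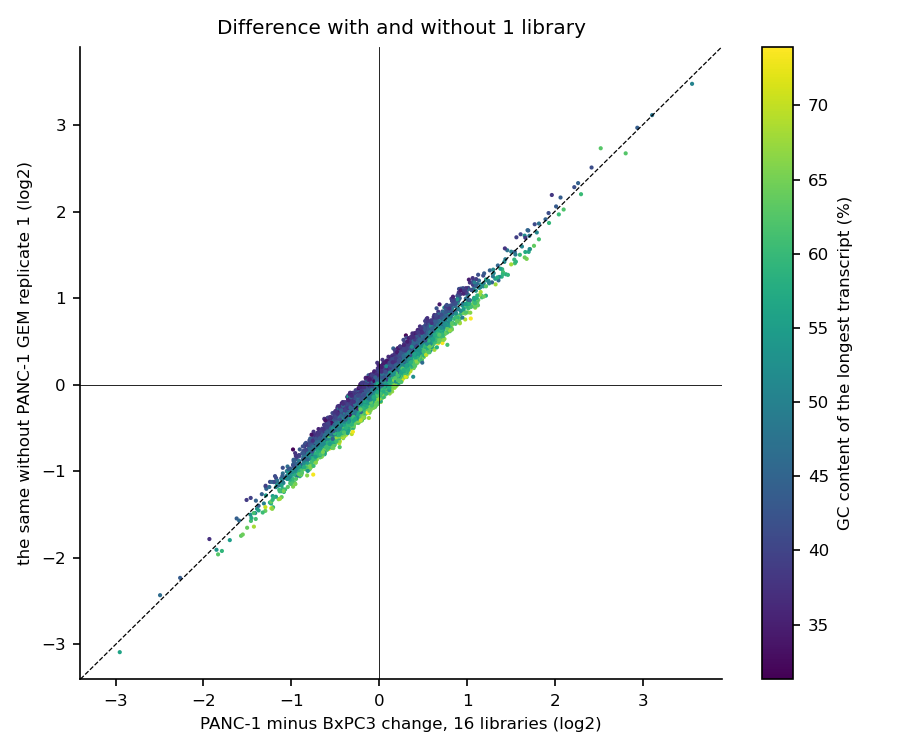
Difference (PANC-1 minus BxPC3 change, log2) over 16 libraries (horizontal) and without PANC-1 GEM replicate 1 (vertical), 1 point per member, coloured by the GC percent of the longest transcript, with equality dashed. Members of low GC lie above the dashed line and those of high GC below it, with a median absolute shift of 0.09.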

How the data were processed

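The 16 libraries were 4 each of BxPC3 CTRL, BxPC3 GEM, PANC-1 CTRL and PANC-1 GEM, grouped by their titles. FPKM per gene and library, and gene length in bases, are the authors' deposited values, in a table for each line, per the file headers. The submitters' processing notes list CASAVA and HISAT2, with no version. Which program counted reads, and whether by strand, is not stated there, so reads of overlapping genes may be mixed. Those notes list a mouse build, mm10. The deposited gene identifiers are human, and 58724 of 58735 have the start and end of GENCODE 29 on GRCh38, the build given here. FPKM times length gave whole reads for 100% of values, within 0.02 reads. Reads per library ranged from 28074125 to 37777222 (BxPC3 CTRL), from 29975612 to 34305420 (BxPC3 GEM), from 23007302 to 24913994 (PANC-1 CTRL) and from 22152034 to 31642808 (PANC-1 GEM). Libraries of a group differed beyond sampling noise, the lowest chi-square over its degrees of freedom being 2.11. Precision is limited by 4 libraries per group.

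The tables were joined on the gene identifier. Genes that reached an FPKM of 1 in 4 or more libraries were fitted on log2(FPKM + 1) with limma 3.58.1 (trend and robust) in R 4.3.3, with Benjamini-Hochberg adjustment over all genes tested and a threshold of 0.05. The difference came from all 16 libraries, and each line's change from its own 8 libraries. Symbols that occur more than once (177) were left out of lists. Named genes were protein-coding members: the 10 highest and 10 lowest differences, the 8 opposite changes per direction and the 6 shared changes per direction whose smaller change was largest, up to 3 per list, and every gemcitabine handling gene. A few of these are not reported here. The members, lists and rules were chosen with earlier results of these data known. Alternatives changed pseudocount, filter, scaling, model, GC trend, member limit and libraries. On simulated data of 14134 genes the difference was recovered for 28% of members given a 1.25-fold change and for 64% given 1.5-fold. It was recovered for 94% given 2-fold and for all given 4-fold, and 13 of 12934 unchanged genes were called. Only 50 members per fold were made to differ between the lines, and no GC trend of a library was simulated. In the data 51.8% of tested genes were called, so these rates may not carry over to them. Tables were read with pandas 2.3.3, and figures drawn with matplotlib 3.10.9.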

Additional observations from a re-analysis of the deposited data

Results flagged for a closer look

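The changes of the 2 lines differed by the interaction test for 1250 members with a higher value in PANC-1 and for 1506 with a lower one. Among the genes with the largest differences, those with a higher value in PANC-1 were NUPR1 at 3.56, NTN4 at 3.11, TXNIP at 2.94, IGFBP4 at 2.81, CYBRD1 at 2.42, SDC1 at 2.30, F2R at 2.27, AGR2 at 2.22, TNFAIP2 at 2.10 and MARCKS at 2.07 on the log2 scale. Opposite changes gave S100A6 at 2.05, ATP2B4 at 1.82, EPS8 at 1.77, UBALD2 at 1.76 and PAK1 at 1.71. Lower in PANC-1 were IFI6 at -2.95, CAV1 at -2.49, DKK1 at -2.27, LPCAT2 at -1.93, AKR1B1 at -1.85, IMPDH1 at -1.83, SLC4A11 at -1.79, TGM2 at -1.70, HMGB3 at -1.62 and NQO1 at -1.59. The remaining opposite changes were FSTL3 at -1.55, HIST1H2BK at -1.46, CDK6 at -1.46 and RGS10 at -1.34.

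Single libraries lay far from the other 3 of their group, with a gap over range above Dixon's 95% critical value. PANC-1 GEM replicate 1 did so for IGFBP4 (330 FPKM), SDC1 (80.7), F2R (38.2), TNFAIP2 (26.0), MARCKS (21.0), IFI6 (114), CAV1 (73.4), TGM2 (10.1) and RRM1 (38.2). BxPC3 CTRL replicate 2 did so for NUPR1 (37.0), TXNIP (806), IGFBP4 (318), AGR2 (151), TGM2 (161) and RRM1 (14.2). Over all 121 named genes 82 of 484 groups were marked this way, 50 of them for PANC-1 GEM replicate 1 and 19 for BxPC3 CTRL replicate 2, where chance marks about 1 in 20 groups.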

How the results depend on the processing

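All 4 counts of members were recomputed under each alternative, except that taking both changes from 1 fit over all 16 libraries bears on the opposite changes alone, at 215 and 318. Without PANC-1 GEM replicate 1 the members higher in PANC-1 were 1701 and those lower 2112, and leaving out each library in turn gave 1148 to 1701 and 1380 to 2112. Opposite changes ranged from 163 to 373 (higher in PANC-1) and from 194 to 559 (higher in BxPC3), and over the other 15 libraries from 163 to 215 and from 194 to 284. With array weights the counts were 1790, 2321, 427 and 697, in the order higher in PANC-1, lower in PANC-1, opposite with PANC-1 up and opposite with BxPC3 up. With each library's GC trend removed the opposite changes were 323 and 488, and with the replicate block added the latter were 409. A log2 limit of 1 left 145, 94, 0 and 1, by its own construction. Members at a control mean of at least 10 gave 745, 887, 118 and 158, of 3288, and at least 2 gave 1948, 2240, 312 and 375, of 8566. Members at a mean of at least 5 over all libraries of each line gave 1263, 1617, 215 and 267. TPM scaling gave 36.2% of called members higher in PANC-1 and limma-voom on recovered reads 52.1%, against 45.4%. The cause of these shifts was not tested.

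Replicate numbers showed no pairing of the samples: the correlation of deviations of same-numbered libraries ran from -0.27 to 0.17 in BxPC3 and from -0.32 to 0.17 in PANC-1. Library-wide trends such as that of PANC-1 GEM replicate 1 enter these deviations, so the check cannot exclude pairing. With the replicate block the counts were 1094, 1296, 154 and 176.

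Of 121 named genes 103 had a called difference, and 98 of these kept call and direction under all 27 alternatives other than the log2 limit. The 5 exceptions were HMGA1, FANCF, RRM1, AURKA and DCTD, of which AURKA, HMGA1 and DCTD were not called with the replicate block. Genes with no called difference changed sign as follows. SPRY1 was 0.051 with a pseudocount of 0.1 and 0.12 by limma-voom, where CCNB1 was 0.028 and ASAP3 0.012. After TPM scaling ANLN was -0.041, BIRC5 -0.051 and IRF2BPL -0.062. With array weights BIRC5 was -0.0065, IRF2BPL -0.15 (called there), CRELD1 -0.035 and NT5C3A 0.027. With each library left out BIRC5 ranged from -0.0066 to 0.075, CCNB1 from -0.042 to 0.0071, IRF2BPL from -0.14 to 0.069, NT5C3A from -0.13 to 0.081 and DCK from -0.28 to 0.011. At 4 libraries per group and these depths, differences under 1.5-fold were often not recovered on simulated data.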
